A study of Homo sapiens with 6 samples.

Results

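The BTG/TOB and GADD45 families are small groups of growth arrest genes, and 8 of their genes were examined here out of the 27942 genes in the deposited table. The families were chosen with earlier results of these data known. Their rows were taken by symbol: BTG1, BTG2, BTG3, TOB1 and TOB2 of the BTG/TOB family, and GADD45A, GADD45B and GADD45G of the GADD45 family. All 8 symbols were found, once each. The RNA came from HCT116 cells, an established human colon cancer line, grown in serum-supplemented RPMI medium. The treated group (OXA) received oxaliplatin, a platinum compound that forms DNA adducts, at 0.5 µM for 24 h, a dose the labels give as the IC50, and the control group (NT) received no treatment. Each group had 3 libraries, made from polyadenylated RNA. Neither the labels nor the methods say whether the 3 libraries of a group came from separate cultures, so the p-values measure the spread between these libraries, which may be technical. A single line was studied, in bulk, so that more RNA per cell cannot be told apart from more cells that hold it.

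BTG and TOB proteins share an amino-terminal domain that binds the deadenylases CNOT7 and CNOT8, catalytic subunits of the CCR4-NOT complex, which shortens the poly(A) tails of mRNAs. Through this contact they speed the decay of mRNAs and slow proliferation, and TOB1 and TOB2 additionally contact the poly(A)-binding protein PABPC1. GADD45 proteins are small acidic proteins that lack enzymatic activity and act by binding others, among them the kinase MAP3K4 at the head of the p38 and JNK stress pathways, the CDK1-cyclin B complex, PCNA and p21. BTG2 and GADD45A are textbook DNA damage-induced genes, whereas GADD45B is known for its induction by TGF-beta and NF-kB.

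Before the counts, the DNA upstream of the start sites is shown for BTG2 and TOB1, the BTG/TOB genes with the largest increases, and for BTG1, the closest relative of BTG2, which differed little. RefSeq promoter windows (GRCh38.p14) matched 7 of the 8 members, the other being GADD45A, and the 250 bases before the start site are printed 5′ to 3′. Of the TOB1 windows, the one at the start of the reference transcript is given. Capitals mark the TATA box (TATAAA), the CCAAT box (CCAAT) and the CRE core (TGACG), each searched on both strands. No 2 of the marked matches overlap.
BTG2 (chr1:203305269-203305518, plus strand): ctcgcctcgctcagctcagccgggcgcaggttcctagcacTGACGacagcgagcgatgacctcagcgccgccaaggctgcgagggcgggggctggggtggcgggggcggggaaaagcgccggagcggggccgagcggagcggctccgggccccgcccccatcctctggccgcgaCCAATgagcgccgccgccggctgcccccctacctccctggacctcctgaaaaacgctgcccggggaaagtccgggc
BTG1 (chr12:92145847-92146096, minus strand): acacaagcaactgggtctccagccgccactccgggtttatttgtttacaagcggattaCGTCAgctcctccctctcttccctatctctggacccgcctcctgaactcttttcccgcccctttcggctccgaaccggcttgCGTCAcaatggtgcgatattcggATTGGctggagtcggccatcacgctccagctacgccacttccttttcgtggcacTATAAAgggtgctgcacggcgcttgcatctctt
TOB1 (chr17:50866355-50866604, minus strand): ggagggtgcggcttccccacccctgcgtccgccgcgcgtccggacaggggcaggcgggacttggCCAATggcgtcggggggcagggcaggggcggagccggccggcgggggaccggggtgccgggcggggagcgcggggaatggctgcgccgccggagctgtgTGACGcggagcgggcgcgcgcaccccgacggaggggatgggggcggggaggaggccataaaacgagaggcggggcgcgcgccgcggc

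The windows of BTG2 and TOB1 were rich in G and C, at 74.8% and 80.4%, against 56.4% in that of BTG1. BTG3 and TOB2, whose groups overlapped, had 78.4% and 68.4%. A relation of this share to the response was not tested. GADD45B had 63.2% and GADD45G 61.6%. Counted from the start site, the TATA box of BTG1 lay from -33 to -28, and the windows printed for BTG2 and TOB1 held none. GADD45B also held a TATA box, from -31 to -26. Of the 35116 RefSeq promoter windows of this length, 10.7% held a TATA box, 32.0% a CCAAT box and 21.2% a CRE core. A CCAAT box was present in the windows of BTG1, BTG2, TOB1, GADD45B and GADD45G, a CRE core in those of BTG1, BTG2 and TOB1. An E-box (CACGTG), in 6.34% of all windows, was found for GADD45B and GADD45G, and the windows of BTG3 and TOB2 held none of these motifs. A missing match says only that these letters are not within these 250 bases.

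Library totals lay between 32979521 and 40967880 counts. NT library 1 stood apart from the rest of its group: its chi-square per gene was 83.1 against NT library 2 and 75.7 against NT library 3, where the other pairs of libraries within a group lay between 19.2 and 29.6. Values that rest on it are given without it below. The 7 members that passed the filter on low counts had between 231 and 4591 raw counts in a library. Some epithelial markers were abundant: EPCAM had between 8451 and 10828 raw counts in every library, and CDH1, KRT8 and KRT18 were likewise abundant. Of the 9 colon epithelial markers, CDX1 had 0 counts in all libraries and LGALS4 at most 3. KRT20 had only 26 to 61 raw counts in a library and VIL1 39 to 95. The summed level of the list was 71330.2 to 95988 normalized counts in NT and 101386 to 113731 in OXA. Of the 8 markers of other cells, PTPRC, CD3E and COL1A2 had at most 3 counts in any library, PECAM1 at most 7 and VWF at most 29. COL1A1 had 107 to 273 raw counts in a library, DES 88 to 166 and ACTA2 189 to 824. The summed level of those 8 was 419 to 651 normalized counts in NT and 1009 to 1371 in OXA, most of that in OXA from the smooth muscle actin gene ACTA2, the 1 marker of either list with an edgeR adjusted p under 0.05. When edgeR was blocked on the library number, KRT8, KRT18 and DES were also higher and CDH1 lower. The part of these shifts in the values below was not tested.

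Of the 7 members tested, 3 rose with oxaliplatin (BTG2, TOB1 and GADD45A) and 0 fell. A change was called where the p-value of edgeR's quasi-likelihood test, after Benjamini-Hochberg adjustment over all 13727 genes tested, was under 0.05. Of those genes 2.78% were called higher and 2.29% lower. The same 3 members passed when a fold change over 1.5 was also asked for, as did 1.97% of all genes. By the fold change alone GADD45B passed as well, which makes 4 of the 7, against 5.62% of all genes. The log2 fold changes of the 7 members had a median of 0.60, where that of all genes tested was 0.023. The OXA libraries were all higher than the NT libraries for 5 members, BTG1 and GADD45B being the other two, and for 14.5% of all genes tested. For 0 members and 14.4% of all genes they were all lower. A fit that blocked on the replicate number called these 5 members higher and 0 lower, where it called 12.1% of all genes higher and 10.9% lower. The members were chosen with earlier results known, so these counts and the median are not independent evidence of a direction.

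**Figure D1:**
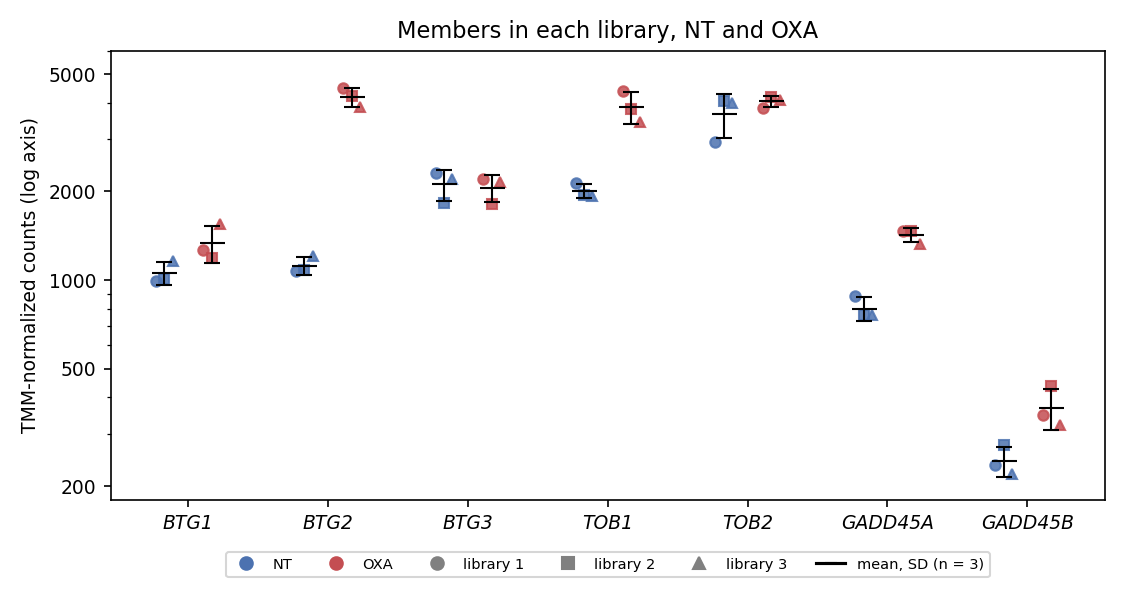
TMM-normalized counts (log axis) of the 7 members that passed the filter, in each of the 3 NT (blue) and 3 OXA (red) libraries, with symbols for the library number and black bars for the mean and SD (n = 3). BTG2, TOB1 and GADD45A stand clearly apart between the groups, BTG1 and GADD45B narrowly, and the groups overlap for BTG3 and TOB2.

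BTG2 (ENSG00000159388, chromosome 1 of GRCh38 from 203305491 to 203309602, plus strand), an antiproliferative gene with 2 exons in its reference transcript, had the largest change of the 7 tested. Its values here and below are counts scaled by 1 TMM factor per library (normalized counts). They were 1072, 1079.8 and 1205 in NT libraries 1 to 3 and 4485, 4204 and 3867 in OXA libraries 1 to 3. The lowest OXA library was 3.21 times the highest NT library, and the libraries of each group lay close together. The means were 1119 ± 74.3 in NT and 4185 ± 309 in OXA (mean ± SD, n = 3), a fold change of 3.74 with a 95% interval from 3.19 to 4.39 (1.90 ± 0.0996, SE, on the log2 scale, adjusted p = 0.000445 by edgeR). This log2 fold change exceeded that of 99.7% of the genes tested. Whichever library was left out, BTG2 passed the threshold, with log2 fold changes between 1.85 and 1.93.

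TOB1 (ENSG00000141232, chromosome 17 from 50862223 to 50867978, minus strand) encodes a protein that bridges the CCR4-NOT deadenylases and PABPC1. It had 2134, 1951 and 1937 normalized counts in NT and 4391, 3793 and 3445 in OXA. The groups were well separated, and the OXA libraries were spread more widely than the NT libraries. From 2007 ± 110.4 to 3876 ± 478, TOB1 rose 1.93-fold (95% interval 1.62 to 2.31, 0.95 ± 0.11, SE, on the log2 scale, adjusted p = 0.00608 by edgeR). Its call did not depend on any 1 library, the highest edgeR adjusted p on leaving one out being 0.0416.

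GADD45A (ENSG00000116717, chromosome 1 from 67685201 to 67688334, plus strand), the founding member of its family, had 884, 759 and 758 normalized counts in NT and 1468, 1462 and 1329 in OXA. All OXA libraries were well above the highest NT library, and the spread within each group was small. GADD45A rose 1.77-fold, from 800.4 ± 72.6 to 1419.9 ± 78.5 (95% interval 1.49 to 2.11, 0.83 ± 0.11, SE, on the log2 scale, adjusted p = 0.00908 by edgeR). The size of the change was stable while its call was not: the edgeR adjusted p was 0.0537 without NT library 3, 0.0669 without OXA library 1 and 0.0535 without OXA library 2, at log2 fold changes of 0.76, 0.80 and 0.81.

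GADD45B (ENSG00000099860, chromosome 19 from 2476122 to 2478259, plus strand), which encodes another activator of MAP3K4, had fewer counts than GADD45A in every library. Its normalized counts were 236, 275 and 219.9 in NT and 348, 436 and 323 in OXA. The groups did not overlap, but the lowest OXA library was 1.17 times the highest NT library. The fold change was 1.51 (95% interval 1.15 to 1.99, 0.60 ± 0.17, SE, on the log2 scale) and missed the threshold over all genes (adjusted p = 0.0885 by edgeR). The call depended on the model: DESeq2 put the adjusted p at 0.0442, and edgeR with the replicate block at 0.0138. Without any 1 library the log2 fold change lay between 0.46 and 0.66 and was not called.

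GADD45G (ENSG00000130222, chromosome 9 from 89605012 to 89606555, plus strand) was at the limit of detection in both groups, with 0, 1 and 1 raw counts in NT libraries 1 to 3 and the same 0, 1 and 1 in OXA. With no library above a floor of 3 counts it was not tested, and no fold change is given.

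BTG1 (ENSG00000133639, chromosome 12 from 92140278 to 92145846, minus strand), which like BTG2 has 2 exons, had 993, 1009 and 1164 normalized counts in NT and 1269, 1185 and 1549 in OXA. The highest NT library and the lowest OXA library nearly met, and OXA library 3 was the highest of the 6. The fold change of 1.26 (95% interval 1.02 to 1.56, 0.34 ± 0.13, SE, on the log2 scale) did not pass the threshold over all genes (adjusted p = 0.190 by edgeR). Blocking on the replicate number brought the adjusted p of edgeR to 0.0237, at a size of 0.33 on the log2 scale. Without OXA library 3 the log2 fold change was 0.19.

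TOB2 (ENSG00000183864, chromosome 22 from 41433494 to 41446801, minus strand), the close relative of TOB1, had 2947, 4047 and 3989 normalized counts in NT and 3841, 4194 and 4091 in OXA. The groups overlapped, with NT library 1 below the other five libraries. The fold change was 1.10 (95% interval 0.894 to 1.36, adjusted p = 0.585 by edgeR), and without NT library 1 the log2 fold change fell from 0.14 to 0.0090.

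BTG3 (ENSG00000154640, chromosome 21 from 17593653 to 17612945, minus strand), a member known for binding E2F1, had 2315, 1824 and 2200.3 normalized counts in NT and 2196, 1813 and 2154 in OXA. Library 2 was the lowest of both groups, and the ranges overlapped almost entirely. The fold change was 0.972 (95% interval 0.795 to 1.19, adjusted p = 0.888 by edgeR), so that changes within this interval, in either direction, cannot be told from none at this spread.

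**Figure D2:**
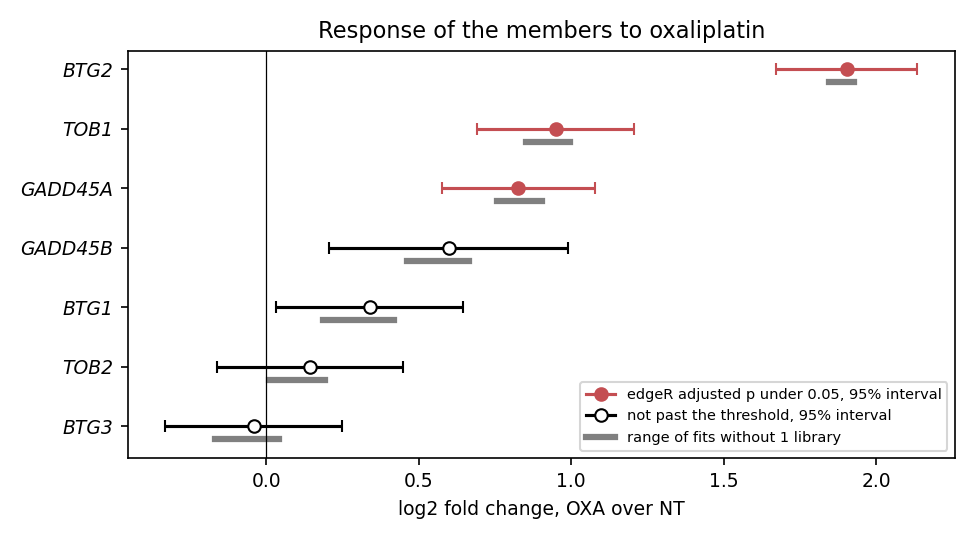
Log2 fold change of OXA over NT for the 7 members tested (points, filled red where the edgeR adjusted p is under 0.05) with 95% intervals, and below each the range over the 6 fits that left out 1 library (grey bars). The interval of BTG2 starts at 1.67 and lies above those of the other six, and the intervals of BTG3 and TOB2 include 0.

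Reads of genes that overlap a member could be shared with it. In the GENCODE annotation of GRCh38, BTG1 overlaps the noncoding gene LINC01619 on the same strand, whose NT libraries held 1, 3 and 2 raw counts and whose OXA libraries held 0. BTG3 overlaps BTG3-AS1 on the opposite strand, for which the raw counts were 1, 1 and 0 without treatment and 2 in each OXA library. These counts are negligible beside those of BTG1 and BTG3. BTG1-DT and TOB1-AS1, also on the opposite strand, were not analysed here. The library kit kept strand, but the strand setting of the counting is not given in the sources used here.

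Levels of different genes were compared as TMM-scaled CPM, the count on a common library size, per kilobase of the reference transcript (CPM per kb). In NT, BTG3 was the highest at 41.7 ± 5.07 CPM per kb (n = 3), followed by TOB1 at 24.9 ± 1.37, TOB2 at 23.5 ± 3.97, GADD45A at 16.5 ± 1.49, BTG2 at 11.4 ± 0.757, BTG1 at 6.34 ± 0.569, GADD45B at 4.94 ± 0.578 and GADD45G at 0.0170. The libraries of TOB1 and TOB2 overlapped, so their order is not settled, and the other neighbours did not overlap. In OXA the order was TOB1 at 48.1 ± 5.94, BTG2 at 42.6 ± 3.15, BTG3 at 40.5 ± 4.14, GADD45A at 29.2 ± 1.61, TOB2 at 25.9 ± 1.16, BTG1 at 8.01 ± 1.15, GADD45B at 7.48 ± 1.21 and GADD45G at 0.0172. TOB1, BTG2 and BTG3 overlapped there, as did BTG1 and GADD45B. BTG2 moved from percentile 61.7 to percentile 87.5 of the level per kilobase of all genes tested. The place of BTG3 depended on the length used: over the merged exons of all its transcripts it was at 24.8 CPM per kb in OXA, below TOB1 at 42.7, BTG2 at 42.2 and TOB2 at 25.9. TOB2 at 23.4 and TOB1 at 22.1 also changed places in NT on that length. GADD45A, at 20.5 in OXA, then lay below TOB2, and in NT it was close to BTG2, at 11.6 against 11.3.

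The summed level of the 5 BTG/TOB genes was 107.8 ± 4.54 CPM per kb in NT and 165 ± 9.15 in OXA, with no overlap. BTG2 made up 10.1%, 10.7% and 10.9% of this sum in NT libraries 1 to 3 and 26.0%, 26.8% and 24.6% in OXA. TOB1 went from 23.2% ± 1.59 to 29.1% ± 2.19, and BTG3 from 38.6% ± 3.72 to 24.5% ± 2.07. The order of these shares depended on the length used. Over merged exons, a choice added after the data were seen, BTG3 held 28.8% ± 3.31 of the sum in NT and 17.3% ± 1.59 in OXA, TOB1 25.1% ± 1.98 and 29.8% ± 2.17, and BTG2 12.8% ± 0.369 and 29.4% ± 1.08. On both lengths the share of BTG2 was higher in every OXA library and that of BTG3 lower in every OXA library than in any NT library. In the GADD45 family the sum went from 21.4 ± 1.46 to 36.7 ± 2.56 CPM per kb. GADD45A held 76.8% ± 2.91 of it in NT and 79.6% ± 2.10 in OXA, and these ranges overlapped.

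**Figure D3:**
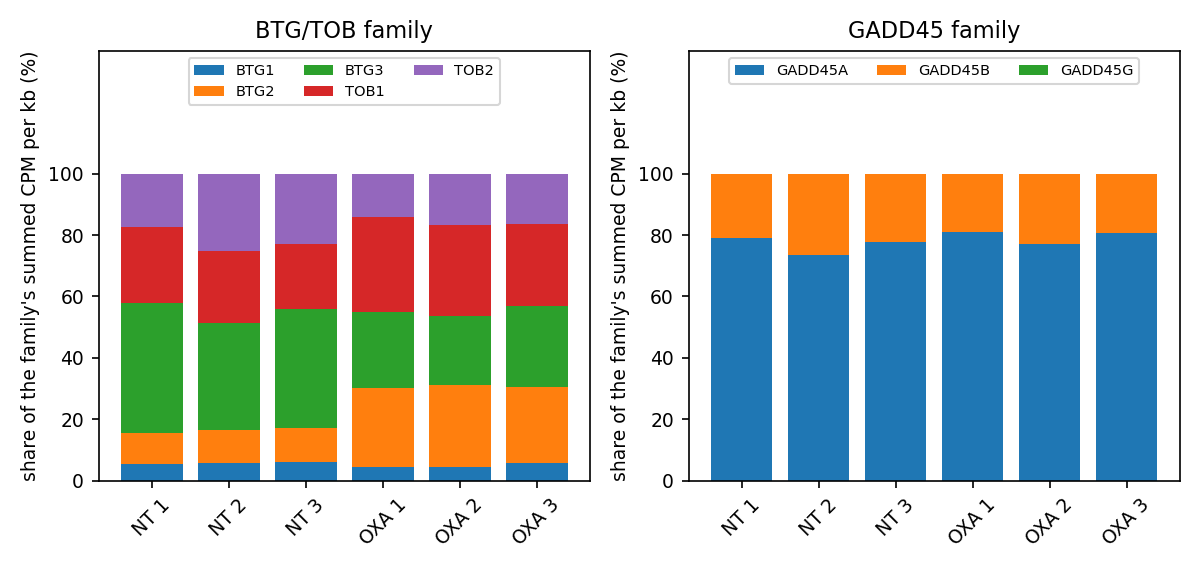
Share of each member in the summed CPM per kb of its family (bars to 100%), in each of the 6 libraries. The part of BTG2 is near 10% in the NT libraries and between 24.6% and 26.8% in the OXA libraries, while the split between GADD45A and GADD45B differs little, and GADD45G is too low to be seen.

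Ratios of raw counts between 2 members of the same library do not depend on the scaling of libraries, so they were used to compare the responses of relatives. BTG2 and BTG1 had nearly equal raw counts without treatment, with ratios of 1.08, 1.07 and 1.03 in NT libraries 1 to 3, and these became 3.53, 3.55 and 2.50 in OXA. On the log2 scale the ratio was higher in OXA by 1.57. The ratio of TOB1 to TOB2 was 0.724, 0.482 and 0.485 in NT and 1.14, 0.904 and 0.842 in OXA, a log2 difference of 0.79. The ratio of BTG2 to GADD45A went from 1.21, 1.42 and 1.59 to 3.05, 2.88 and 2.91, so that BTG2 changed more than the other well-known damage-induced gene of the set by 1.07 on that scale.

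GADD45A against GADD45G gave no ratio, as GADD45G had libraries at 0. Of the other 7 pairs, 6 did not overlap between the groups. Each of these 6 had an exact two-sided permutation p of 0.1, the smallest that 3 against 3 libraries can give, and 0.117 after adjustment over the 7 pairs. The test therefore could not reach 0.05 in this design. BTG1 against BTG3 was the smallest of the 6, with a log2 difference of 0.37, and BTG2 against BTG3 the largest, with 1.94. BTG2 against TOB1 differed by 0.96. For GADD45A against GADD45B the groups overlapped (log2 difference 0.24, exact permutation p = 0.3). Within each library number, a comparison added after the data were seen, this ratio was higher in OXA for 3 of 3 numbers, by 0.17, 0.28 and 0.26 on the log2 scale. The other 6 pairs were also higher for 3 of 3 numbers, and an exact two-sided sign-flip permutation test gave p = 0.25 for each pair, the smallest that 3 numbers allow. In each pair the first gene had the larger log2 fold change, so the direction of the ratio follows from that order. Several pairs hold BTG2, so the pairs are not separate results. No share over other gene pairs is given beside these counts.

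**Figure D4:**
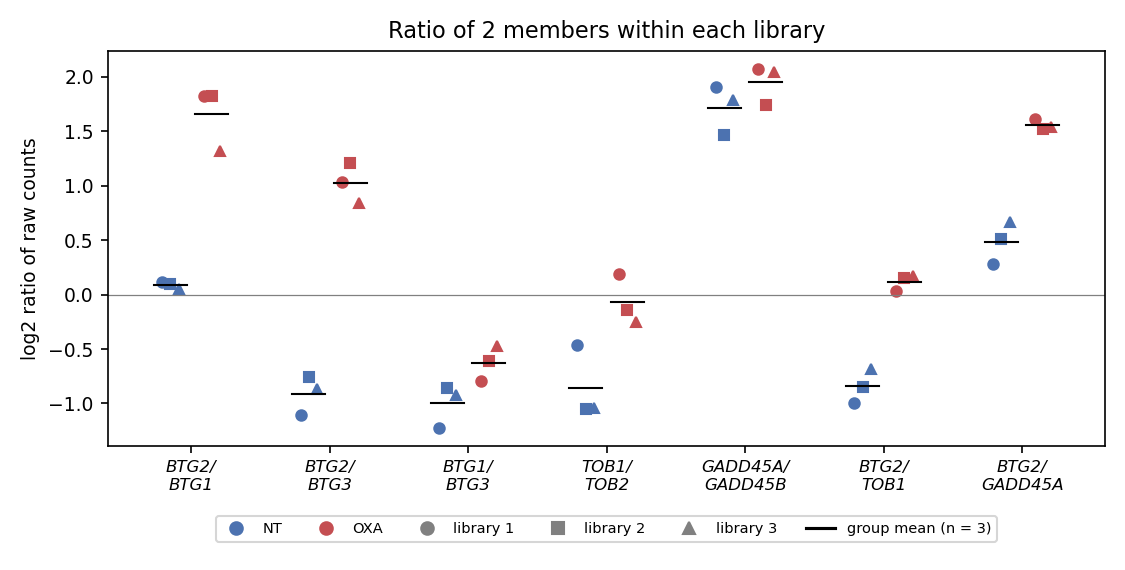
Log2 ratio of the raw counts of 2 members within each library (NT blue, OXA red, symbols for the library number, black lines for group means, n = 3). The OXA libraries lie above the NT libraries in 6 of the 7 pairs, and overlap with them for GADD45A/GADD45B. In each pair the gene with the larger log2 fold change is written first.

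The deadenylase partners of the BTG/TOB proteins, 16 genes of the CCR4-NOT and PAN2-PAN3 complexes and poly(A)-binding proteins, had no member past the threshold. At an edgeR adjusted p under 0.05, 0 of the 16 were higher and 0 lower, where 2.78% and 2.29% of all genes tested were. At an unadjusted p under 0.05, 0 were higher and 4 lower by edgeR, where 10.7% and 11.1% of all genes tested were, and DESeq2 also called 0 at an adjusted p under 0.05. Their median log2 fold change was -0.12. CNOT7 and CNOT8, which BTG/TOB proteins bind directly, had log2 fold changes of -0.0015 and -0.036. The extremes were CNOT3, a subunit of the CCR4-NOT complex, at 0.16 (adjusted p = 0.637 by edgeR), and CNOT6L, a catalytic subunit, at -0.36 (adjusted p = 0.0834 by edgeR). The value of CNOT3 rested on single libraries, at 0.042 without NT library 1, 0.050 without OXA library 2, 0.097 without NT library 3 and 0.31 without NT library 2. With the replicate block 4 genes were lower and 0 higher, where 10.9% and 12.1% of all genes tested were. The 4 are named here after their values were seen: PABPC1, CNOT6L, CNOT9 and CNOT10.

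Of the 12 genes of the stress kinase branch below GADD45, 11 were tested, and 1 was higher and 1 lower in OXA. Of all genes tested, 2.78% were called higher and 2.29% lower. MAPK13, which encodes a p38 kinase, rose from 2164 ± 257 to 3032 ± 101.4 normalized counts (0.49 on the log2 scale, adjusted p = 0.0455 by edgeR). MAPK9, which encodes the kinase JNK2, fell from 2335 ± 107.3 to 1661 ± 108 (-0.49 on the log2 scale, adjusted p = 0.0279 by edgeR). MAP3K4, the kinase that GADD45 proteins bind and activate, was at -0.28 on the log2 scale (adjusted p = 0.166 by edgeR). The median of the branch was 0.0086. Both calls were lost when any 1 library other than NT library 1 was left out, which gave 0 called genes, whereas 3 were called without NT library 1. With the replicate block 3 were higher and 2 lower, the additional genes being MAP2K3, MAP2K4 and MAP3K4. That fit called 12.1% of all genes tested higher and 10.9% lower.

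Among 8 proteins that GADD45 or BTG proteins bind, CDKN1A, the gene of the CDK inhibitor p21, rose 7.60-fold, from 4235, 5143 and 6049.6 normalized counts in NT to 40181, 41316 and 35832 in OXA (2.93 on the log2 scale, adjusted p = 0.000445 by edgeR). The other seven did not pass the threshold. CDK1, the mitotic kinase, averaged 7343 ± 823 normalized counts without treatment and 5722 ± 476 with it (-0.36 on the log2 scale, adjusted p = 0.112 by edgeR). Its partner CCNB1 was at -0.15 (adjusted p = 0.455 by edgeR), at -0.086 without OXA library 2, -0.23 without NT library 2 and -0.25 without OXA library 3, and PCNA, the replication clamp, at -0.045 (adjusted p = 0.830 by edgeR). For TDG, a DNA glycosylase, the log2 fold change was 0.39 (adjusted p = 0.144 by edgeR), and for the dioxygenase gene TET1 it was -0.38 (adjusted p = 0.222 by edgeR). PRMT1, an arginine methyltransferase that binds BTG1 and BTG2, had 0.33 (adjusted p = 0.415 by edgeR), and 0.11 without NT library 1. GADD45GIP1 had 0.57 (adjusted p = 0.367 by edgeR), with NT library 1 at 495 and NT library 2 at 1226 normalized counts. Its value was 0.28 without NT library 1, 0.31 without OXA library 2 and 0.86 without NT library 2. With the replicate block TDG was higher and CDK1 lower (adjusted p = 0.0186 and 0.0204 by edgeR), and without NT library 1 TDG passed as well, which gave 2 called genes.

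Of 13 transcriptional regulators known to act on these families, 1 was higher and 3 lower, where 2.78% and 2.29% of all genes tested were. E2F1, a cell cycle transcription factor, fell from 1084 ± 145 to 505 ± 55.5 normalized counts (-1.10 on the log2 scale, adjusted p = 0.00858 by edgeR). BRCA1, a repair protein and a regulator of GADD45A, fell from 3105 ± 326 to 1686 ± 131 (-0.88 on the log2 scale, adjusted p = 0.00802 by edgeR), and ATF4, a stress response factor, from 14034 ± 867 to 10651 ± 473 (-0.40 on the log2 scale, adjusted p = 0.0443 by edgeR). SMAD3, which transmits TGF-beta signals, rose from 3309 ± 110.0 to 4570.5 ± 159 (0.47 on the log2 scale, adjusted p = 0.0209 by edgeR). The number of regulators called was 0 without OXA library 1 and 2 without NT library 2, NT library 3, OXA library 2 or OXA library 3. With the replicate block 2 were higher and 5 lower, the additional genes being MYC, EGR1 and SMAD4. The block called 12.1% of all genes tested higher and 10.9% lower.

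Of 12 other damage-induced genes of arrest and feedback, 10 were higher in OXA and 0 lower, where 2.78% and 2.29% of all genes were. Their median log2 fold change was 1.21 over the 12 genes. Among the 10 were MDM2, GDF15, PLK3, SESN1, ZMAT3, PLK2, SESN2, RRM2B and PPM1D, with log2 fold changes between 1.00 and 2.22. The list was drawn up with results of these libraries known, so its count is not independent evidence of a direction. BTG2, at 1.90, lay above PLK3, a stress-responsive kinase gene (1.56), and below GDF15, a secreted stress factor (1.99). The order of BTG2 and GDF15 rested on single libraries. Without NT library 1 they were at 1.87 and 1.69, and without OXA library 2 at 1.90 and 1.89. In the other fits without 1 library GDF15 stayed above BTG2. GDF15 was called in 2 of the 6 fits without 1 library. TOB1 and GADD45A, at 0.95 and 0.83, lay under PPM1D (1.00), the smallest of the 10, and above CCNG1 (0.27), which was not called. Without NT library 3 TOB1 was at 0.89 and PPM1D at 0.88, so the order of these genes is not settled. PPM1D was called in 3 of the 6 fits without 1 library. CCNG2 had a log2 fold change of -0.038. Without OXA library 1, 6 of the 12 were called. With the replicate block 11 were higher, CCNG1 included (adjusted p = 0.0148 by edgeR), where 12.1% of all genes tested were.

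**Figure D5:**
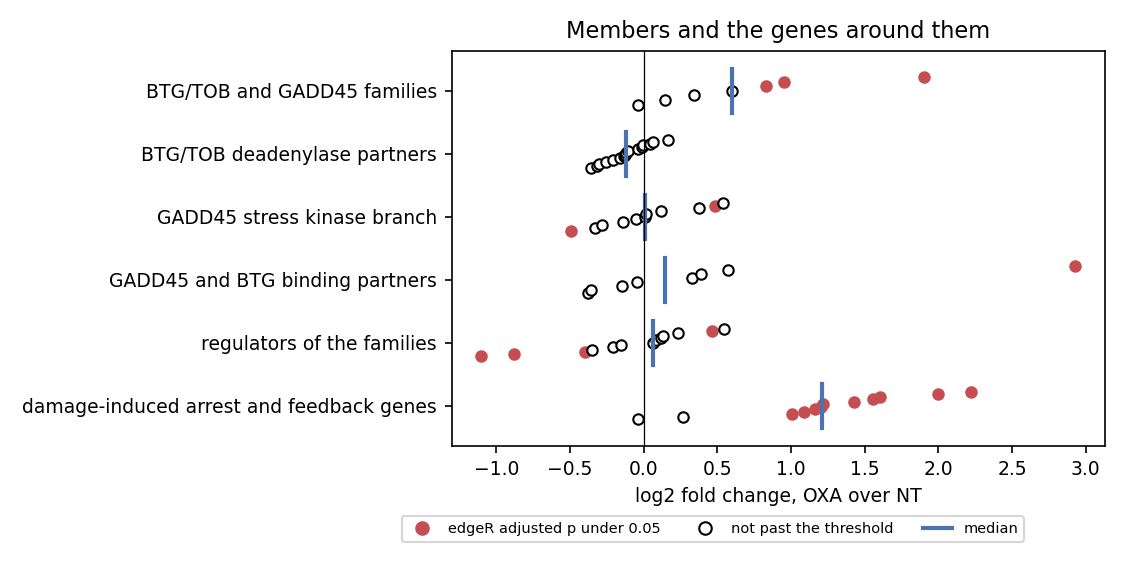
Log2 fold change of OXA over NT for each tested gene of the BTG/TOB and GADD45 families and of 5 gene lists around them (red, edgeR adjusted p under 0.05, open circles, not past the threshold, blue line, median). The medians run from -0.12 for the deadenylase partners to 1.21 for the damage-induced genes, with 0.60 for the family members.

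The genes whose pattern over the 6 libraries was most like that of each member were sought among 11795 genes, by Pearson's r of log2 CPM. Nearest to BTG2 were SRA1 and MEAK7, nearest to TOB1 were SARS and PTPN1, and nearest to GADD45A were P2RY2 and PSTPIP2. All 6 of these genes had an edgeR adjusted p under 0.05 in the same direction, where 2.78% of all genes tested were called higher. Nearest to GADD45B were B3GNT3 and HYPK, to BTG1 HINT1 and CYB5R1, to TOB2 OTUB1 and SEMA4B, and to BTG3 MED13 and KIF3B, and none of these 8 passed that threshold. The correlations lay between 0.991 and 0.999. With 6 libraries that share treatment and depth and so many candidates, values this high are a description of likeness only. The genes were picked by likeness over the same libraries, so their counts past the threshold are tied to that choice and are not separate evidence.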

How the data were processed

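Stranded mRNA libraries of HCT116 cells, 3 untreated (NT) and 3 given oxaliplatin (OXA), were grouped by their titles. The submitters' processing notes name Trimmomatic 0.32, STAR 2.7.5b, RSEM 1.3.3 and DESeq2 2.13 on GRCh38. The annotation and strand setting of the counting are not given in the sources used here. The authors deposited raw counts per gene, whole numbers (possibly rounded RSEM estimates) used as deposited, and a normalized signal, which was the raw count times a factor that differed between genes and which served only for an alternative. The median of that factor ran from 0.889 to 1.09 between libraries.

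Genes were filtered with filterByExpr (minimum count 10, minimum total 15), which left 13727, scaled by TMM and compared by edgeR's quasi-likelihood test (edgeR 4.0.16 in R 4.3.3). P-values were adjusted by Benjamini-Hochberg over all of them, with a threshold of 0.05. DESeq2 1.42.0 and limma 3.58.1 served for alternatives. The edgeR steps were tested on simulated counts. Those held no effect of the replicate number and no outlying library, so they check the code rather than its behaviour on these libraries. Intervals are 95%, from the spread between libraries. Pairs of libraries within a group gave a chi-square per gene of 19.2 to 83.1, the highest values being those of NT library 1. No library therefore repeated another of its own group, and NT libraries were not set against OXA libraries in this way.

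Deviations from the group means were correlated between NT and OXA libraries of the same number, with r of 0.55, 0.54 and 0.31 for numbers 1, 2 and 3, all over the limit of 0.1. The numbers come from the titles, which do not say what they stand for. A fit blocked on that number is given where it changes the call of a gene named or the count of a list. The other alternatives are listed with their effect in the closing part.

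The members and gene lists were chosen with earlier results of these data known, so no p-value was adjusted over the list alone. Named are all members, every binding partner, genes of the other lists past the threshold (or the extremes where none passed) and the 2 genes most like each tested member, sought where the mean normalized count was 50 or more and the symbol no clone name. Genes named besides were chosen after their values were seen. A gene of the regulators and a gene of the damage-induced list are not reported here.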

Additional observations from a re-analysis of the deposited data

How the results depend on the processing

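Alternatives were DESeq2 size factors in edgeR, DESeq2, limma-voom, no filter, a stricter filter (at least 50 counts in at least 3 libraries), the replicate block, limma on the authors' normalized values (log2 with a pseudocount of 1) and each library left out in turn. BTG2 and TOB1 kept their direction and their call under all of them, and GADD45A lost its call in 3 of the 6 fits without 1 library. Over all genes, the counts of higher and lower calls were 608 and 567 by DESeq2, 1664 and 1493 with the replicate block and 236 and 187 from the authors' values, and without 1 library they ranged from 66 to 623 and from 19 to 571, lowest without OXA library 1 and highest without NT library 1. Members called higher were 5 with the replicate block, and 2 to 3 without 1 library. The replicate block called 4 deadenylase partners, 5 stress kinases, 3 binding partners and 7 regulators, and 12.1% of all genes tested higher and 10.9% lower. The stress kinase calls were 1 without a filter, 1 from the authors' values and 0 to 3 without 1 library. Regulator calls were 2 from the authors' values and 0 to 5 without 1 library, binding partner calls 1 to 2, and damage-induced gene calls 6 to 10. On the log2 scale, BTG3 changed sign to 0.030 without NT library 1 and 0.042 without OXA library 2, and ranged from -0.17 to 0.042. PCNA changed to 0.023 and 0.0056 in the same fits and ranged from -0.12 to 0.023. The log2 differences of the ratios kept their sign without any 1 library: they ranged from 1.48 to 1.74 for BTG2/BTG1, 0.66 to 0.98 for TOB1/TOB2 and 0.11 to 0.34 for GADD45A/GADD45B. Apart from BTG1 and GADD45B, the block changed no call of a member. The cause of these differences was not tested.

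At 0 to 1 counts per library, GADD45G was below what this depth can compare.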
